A study of Mus musculus with 14 samples.

Results

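The genes described here mark the epithelium of the thymus: the keratins Krt8, Krt18, Krt5, Krt14 and Krt17, the transcription factors Trp63, Aire and Foxn1, and the chemokine Ccl25. They were chosen by name, with earlier results of these data known. A probe set was used only where it names 1 of these genes and no other. Of the 9 genes, 8 were measured, by 11 probe sets, among 10254 genes in the table. Foxn1, which drives the differentiation of thymic epithelium, is not analysed here.

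Their levels were read in thymic lymphomas of 14 mice, 1 array per tumour, to ask whether they differ between Hif1a genotypes. Both p53 alleles of every mouse held the R270H mutation, and the strain was mixed (C57BL/6-129/SvEvTac). The groups were 5 tumours labelled Hif1a+/-, the usual notation for 1 lost allele, 4 tumours with 1 knock-in allele (Hif1aKI/+) and 5 tumours with both alleles unaltered (Hif1a+/+), which shared the p53 mutation with the other genotypes. The tissue was collected when the mice, aged in a barrier facility, showed signs of respiratory distress. The labels, which write the gene as HIF1a, do not say what the knock-in allele carries and name no sex, age or batch.

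The thymus holds developing T cells within a mesh of epithelial cells. Epithelial cells of the outer zone, the cortex, contain the simple keratins Krt8 and Krt18 and secrete Ccl25, which draws T cell progenitors through its receptor Ccr9. In the inner zone, the medulla, many epithelial cells contain the basal keratins Krt5 and Krt14, and a mature subset contains Aire, which switches on genes of other tissues so that developing T cells meet their products.

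A value is a log2 signal, so a difference of 1 is a doubling. The low mode of the gene means, taken here as genes with no signal above background, ends at 4.85. A value below that boundary is called background here, and differences among such values are not read as an order. The boundary comes from the density of gene means and not from a detection call for each value. The T lineage markers, such as Cd3e and Cd8a, averaged between 11.96 and 12.96 in every tumour over 11 measured genes, of which Cd5 was at background in 1 Hif1a+/- tumour. The 6 measured reference genes, such as Actb and Gapdh, averaged between 13.49 and 13.89. The signal of the targeted gene itself, Hif1a, lay between 12.24 and 12.82 in Hif1a+/- tumours, between 11.75 and 12.25 in Hif1aKI/+ tumours and between 12.44 and 13.04 in Hif1a+/+ tumours, and the labels do not say whether the array reads the altered part of the gene.

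Krt8 and Krt18 form the intermediate filaments of simple epithelia as partners, and they were among the most variable genes of these tumours. Krt8 lay between 7.996 and 11.53 in the 5 Hif1a+/- tumours and between 9.59 and 11.65 in the 4 Hif1aKI/+ tumours, whereas the Hif1a+/+ tumours ran from 2.04 to 10.68. Its standard deviation over the 14 tumours exceeded that of 99.6% of all genes, and that of Krt18 exceeded 99.4%. Neither keratin passed the test between genotypes, an adjusted p under 0.05 in limma over all genes, which 0.0195% of all genes passed for Hif1a+/- against Hif1a+/+ and 0% in each other comparison.

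The 2 keratins are also neighbours on chromosome 15, with 0 protein-coding genes between them in the RefSeq annotation. Their promoters are printed here because the genes moved together, each as 250 bases before the start that RefSeq lists and 50 from it on, in build GRCm38.p6. Capitals mark TATAAA, the TATA box, and GACGC, a core that the factor Foxn1 recognises, on either strand, so a match on the opposite strand reads TTTATA or GCGTC. Of the 32851 promoters of the same length in the table, 13.6% hold TATAAA and 27.2% hold GACGC. The Krt8 promoter is chr15:102004293-102004592 on the minus strand, and that of Krt18 is chr15:102027966-102028265 on the plus strand.
Krt8: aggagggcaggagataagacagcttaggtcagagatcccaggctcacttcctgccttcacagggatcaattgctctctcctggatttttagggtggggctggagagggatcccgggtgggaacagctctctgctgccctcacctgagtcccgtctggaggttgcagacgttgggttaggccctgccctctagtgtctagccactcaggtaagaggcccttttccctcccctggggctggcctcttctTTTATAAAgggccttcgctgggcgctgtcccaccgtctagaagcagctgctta
Krt18: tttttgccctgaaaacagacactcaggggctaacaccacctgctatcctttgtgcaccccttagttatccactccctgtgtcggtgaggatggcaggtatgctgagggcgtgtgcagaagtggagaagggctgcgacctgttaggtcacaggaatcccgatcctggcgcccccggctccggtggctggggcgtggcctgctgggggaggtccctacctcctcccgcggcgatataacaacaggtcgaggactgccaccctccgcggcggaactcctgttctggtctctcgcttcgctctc
The Krt8 window holds TATAAA on both strands, in overlapping letters that begin 3 and 1 bases before the listed start, and no GACGC. The Krt18 window holds neither run of letters.

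Krt8 read 7.996, 10.56, 11.53, 10.17 and 10.25 in the Hif1a+/- tumours and 11.65, 11.33, 9.59 and 10.87 in the Hif1aKI/+ tumours. In the Hif1a+/+ tumours it read 10.68, 9.94, 3.09, 2.04 and 6.62. Of those 5 tumours, numbers 1 and 2 lay among the tumours of the other genotypes, numbers 3 and 4 were at background and number 5 lay between, so the groups overlapped. The mean was 10.10 ± 1.30 (SD, n = 5) in Hif1a+/- tumours, 10.86 ± 0.90 (SD, n = 4) in Hif1aKI/+ tumours and 6.47 ± 3.90 (SD, n = 5) in Hif1a+/+ tumours.

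Against Hif1a+/+ the difference in Krt8 was 3.63 (SE 1.54) on the log2 scale for Hif1a+/-, a 12.4-fold ratio of geometric means, and 4.38 (SE 1.64) for Hif1aKI/+, a 20.9-fold ratio. The adjusted p values from limma over all genes were 0.600 and 0.984, so neither difference passed the threshold. The 95% confidence intervals, which are not adjusted for the number of genes, were 0.26 to 6.999 and 0.81 to 7.96, and both comparisons use the same Hif1a+/+ tumours. In bulk tumour RNA, fewer epithelial cells and less of a transcript per cell cannot be told apart, for this and every other gene described.

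The other 2 probe sets of Krt8 put the same tumours at the low end. One of them read 2.43 in each of the Hif1a+/+ tumours 3 and 4, and the other read 2.15 and 2.05 there. In Hif1a+/+ tumour 5 the 3 probe sets read 6.62, 5.87 and 3.81, so whether Krt8 stands above background in that tumour depends on the probe set.

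Krt18 read 7.55, 10.10, 10.78, 9.43 and 10.0002 in the Hif1a+/- tumours and 10.60, 10.66, 8.52 and 10.27 in the Hif1aKI/+ tumours. The Hif1a+/+ tumours read 10.34, 8.98, 3.21, 3.56 and 3.45. Hif1a+/+ tumours 3, 4 and 5 were at background and the other 11 tumours were all above 7.5, with Hif1a+/+ tumours 1 and 2 inside the range of the other genotypes. The difference was 3.66 (SE 1.39, limma adjusted p = 0.5502) for Hif1a+/- minus Hif1a+/+ and 4.10 (SE 1.48, adjusted p = 0.984) for Hif1aKI/+ minus Hif1a+/+.

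**Figure D1:**
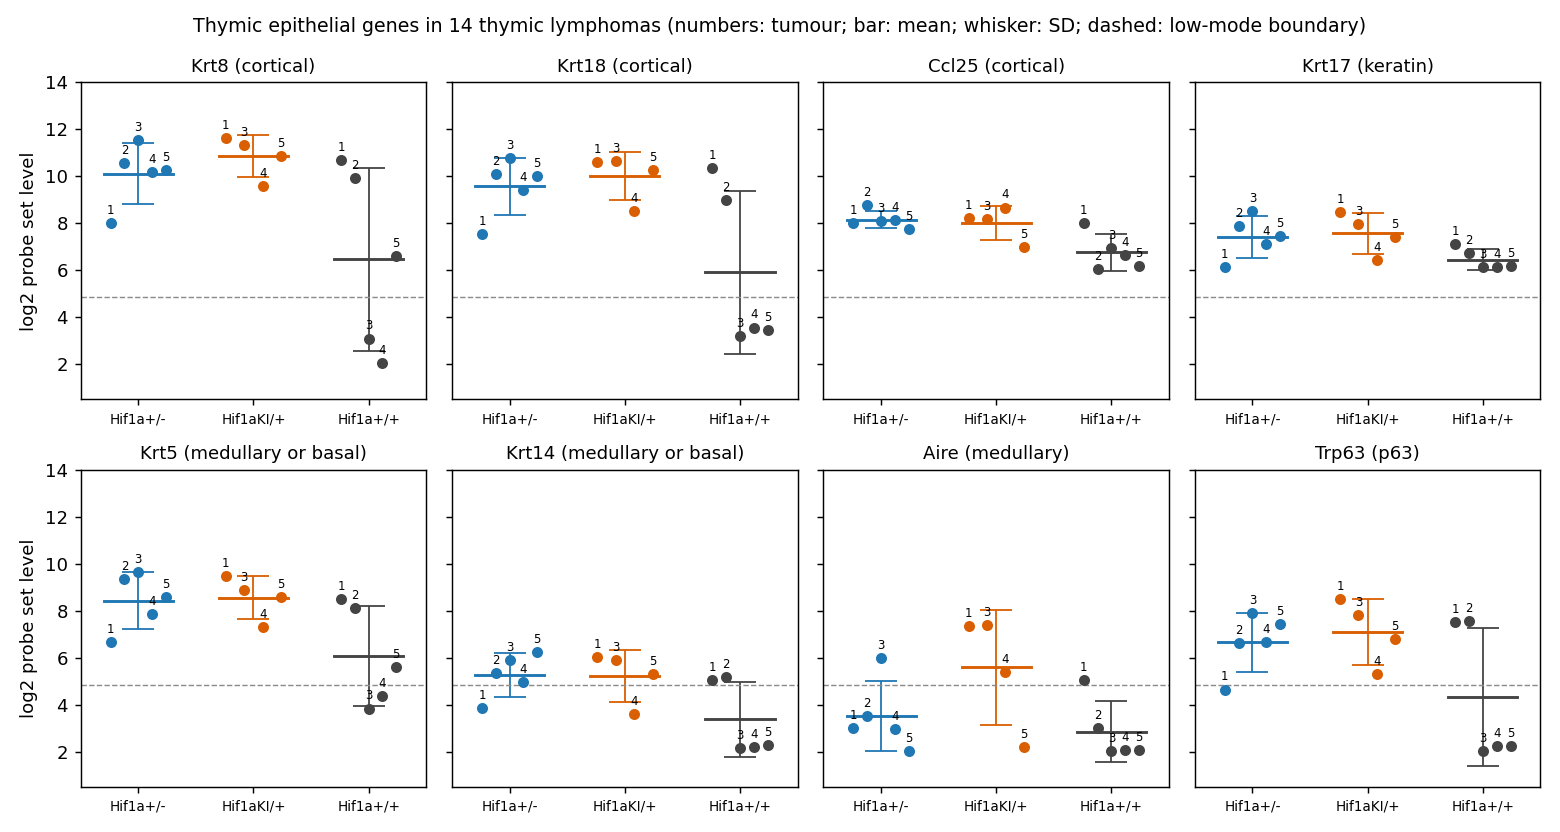
Log2 probe set level (vertical axis) of the 8 measured genes in each tumour, by Hif1a genotype (horizontal axis), with tumour numbers beside the points, bars for means, whiskers for SD and a dashed line at the low-mode boundary of 4.85. Hif1a+/+ tumours 3, 4 and 5 sit at the bottom of the Krt18, Krt14 and Trp63 panels, below the line, while Hif1a+/+ tumours 1 and 2 sit with the other genotypes. Also below the line in these panels are Hif1a+/- tumour 1 for Krt14 and Trp63 and Hif1aKI/+ tumour 4 for Krt14.

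Krt5 and Krt14 are the keratin pair of basal epithelial cells, which in the thymus lie mainly in the medulla and at its border. Krt5 was above background in 12 of the 14 tumours. Krt14 was above it in 9 of 14 by its probe set of highest mean, while its other probe set stayed at background in all tumours. By the probe sets of highest mean, both genes were lowest in the same 3 Hif1a+/+ tumours as Krt8 and Krt18. Neither passed the test between genotypes.

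The Krt5 promoter is shown for comparison with those of the simple keratins. It is chr15:101712856-101713155 on the minus strand, on the same chromosome as Krt8, with 10 protein-coding genes between them.
Krt5: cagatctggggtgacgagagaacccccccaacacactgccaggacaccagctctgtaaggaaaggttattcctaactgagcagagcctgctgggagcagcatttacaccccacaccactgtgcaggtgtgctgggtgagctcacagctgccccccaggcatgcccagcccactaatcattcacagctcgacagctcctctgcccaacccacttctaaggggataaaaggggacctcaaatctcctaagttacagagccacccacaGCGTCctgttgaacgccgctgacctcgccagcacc
It holds no TATAAA, and 1 GACGC on the opposite strand that begins 15 bases after the listed start.

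Krt5 read 6.65, 9.37, 9.65, 7.88 and 8.58 in the Hif1a+/- tumours and 9.47, 8.89, 7.31 and 8.56 in the Hif1aKI/+ tumours. It read 8.51, 8.10, 3.84, 4.37 and 5.58 in the Hif1a+/+ tumours. The groups overlapped through Hif1a+/+ tumours 1 and 2, and Hif1a+/+ tumour 5 stayed above the background boundary. The difference was 2.35 (SE 0.95, limma adjusted p = 0.579) for Hif1a+/- minus Hif1a+/+ and 2.48 (SE 1.01, adjusted p = 0.984) for Hif1aKI/+ minus Hif1a+/+.

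Krt14 read 3.84, 5.34, 5.90, 4.97 and 6.24 in the Hif1a+/- tumours, 6.03, 5.89, 3.62 and 5.31 in the Hif1aKI/+ tumours, and 5.04, 5.16, 2.17, 2.20 and 2.27 in the Hif1a+/+ tumours. At background were 5 tumours, Hif1a+/+ tumours 3, 4 and 5 and 1 tumour of each other genotype, and none stood far above the boundary. Differences against Hif1a+/+ of 1.89 (SE 0.76, limma adjusted p = 0.579) for Hif1a+/- and 1.84 (SE 0.81, adjusted p = 0.984) for Hif1aKI/+ are therefore measured against a group mean of 3.37, itself at background, and their size is uncertain. The second Krt14 probe set stayed at background in all tumours, between 2.09 and 3.63. Whether Krt14 stands above background in any tumour, and the size of any difference, thus depend on the probe set.

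Krt17, a type I keratin of basal and stressed epithelium whose gene lies on chromosome 11 with 1 protein-coding gene between it and Krt14, was above background in every tumour. It read 6.14, 7.87, 8.503, 7.10 and 7.46 in the Hif1a+/- tumours, 8.46, 7.97, 6.45 and 7.41 in the Hif1aKI/+ tumours, and 7.10, 6.75, 6.12, 6.16 and 6.16 in the Hif1a+/+ tumours. Hif1a+/- tumour 1 was as low as Hif1a+/+ tumours 3, 4 and 5, and the Krt17 range of 2.38 was narrower than that of the other keratins. The difference was 0.96 (SE 0.46, limma adjusted p = 0.631) for Hif1a+/- minus Hif1a+/+ and 1.11 (SE 0.48, adjusted p = 0.984) for Hif1aKI/+ minus Hif1a+/+.

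Trp63 encodes p63, which maintains the progenitors of stratified epithelia and of the thymic epithelium. It read 4.64, 6.64, 7.89, 6.65 and 7.44 in the Hif1a+/- tumours, 8.49, 7.82, 5.29 and 6.78 in the Hif1aKI/+ tumours, and 7.4992, 7.57, 2.04, 2.24 and 2.23 in the Hif1a+/+ tumours. The Hif1a+/+ group split into tumours 1 and 2, level with the upper tumours of the other genotypes, and tumours 3, 4 and 5 at background. Hif1a+/- tumour 1, at 4.64, was also below the boundary. The difference was 2.34 (SE 1.26, limma adjusted p = 0.656) for Hif1a+/- minus Hif1a+/+ and 2.78 (SE 1.34, adjusted p = 0.984) for Hif1aKI/+ minus Hif1a+/+.

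Of 20 listed partners of p63 and of basal epithelium, 15 were measured, 0 passed the threshold in any comparison and 6 were at background in all 14 tumours. Their median difference was 0.24 for Hif1a+/- minus Hif1a+/+ and 0.45 for Hif1aKI/+ minus Hif1a+/+, beside about 0.00 over all genes in both. Perp, a desmosome protein and p63 target, was 9.35 in Hif1a+/- tumours, 9.21 in Hif1aKI/+ tumours and 7.61 in Hif1a+/+ tumours on average, with adjusted p values of 0.696 and 0.984 against Hif1a+/+. Perp was 4.36 and 6.52 in Hif1a+/+ tumours 3 and 4 but 9.39 in Hif1a+/+ tumour 5, a tumour in which Trp63 was at background.

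Other basal genes followed a different order of tumours. Lamb3, a chain of the basement membrane laminin, averaged 5.82 in Hif1a+/- tumours, 5.71 in Hif1aKI/+ tumours and 3.13 in Hif1a+/+ tumours, a difference of 2.68 (SE 0.67, limma adjusted p = 0.408) for Hif1a+/-. Jup, the junction protein plakoglobin, averaged 8.20 in Hif1a+/- tumours, 8.22 in Hif1aKI/+ tumours and 5.82 in Hif1a+/+ tumours, a difference of 2.38 (SE 0.68, adjusted p = 0.474). Unlike the keratins, both were low in Hif1a+/+ tumour 2, at 2.05 for Lamb3 and 4.86 for Jup, where Trp63 was 7.57.

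Ccl25 separated from the cortical keratins. It was above background in all 14 tumours, varied over 2.70 log2 units against 9.61 for Krt8, and had the smallest p of the 8 genes in both comparisons with Hif1a+/+, although it did not pass the test. Its promoter is shown because Ccl25 is a known target of Foxn1. The RefSeq table lists more than 1 start for the gene, and the window of the start at the gene's end is chr8:4324960-4325259 on the plus strand.
Ccl25: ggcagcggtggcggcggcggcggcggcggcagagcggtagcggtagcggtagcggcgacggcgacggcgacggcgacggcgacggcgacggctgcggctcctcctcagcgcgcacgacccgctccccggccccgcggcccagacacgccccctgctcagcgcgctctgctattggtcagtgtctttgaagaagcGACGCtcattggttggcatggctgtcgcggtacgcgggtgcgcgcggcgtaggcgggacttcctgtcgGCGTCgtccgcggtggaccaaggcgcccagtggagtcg
It holds GACGC once on each strand, beginning 56 bases before and 12 bases after that start, and no TATAAA. The window of the other listed start, chr8:4349338-4349637 on the plus strand, holds TATAAA 16 bases before that start and no GACGC.

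Ccl25 read 8.02, 8.76, 8.09, 8.14 and 7.78 in the Hif1a+/- tumours and 8.22, 8.18, 8.67 and 7.01 in the Hif1aKI/+ tumours. It read 7.999, 6.06, 6.96, 6.64 and 6.17 in the Hif1a+/+ tumours. All Hif1a+/+ tumours except number 1 lay below every other tumour, and Hif1a+/+ tumour 1 lay among the Hif1a+/- tumours, so the groups overlapped by 1 tumour. The lowest Ccl25 value of all was in Hif1a+/+ tumour 2, whose Krt8 and Krt18 were 9.94 and 8.98.

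The mean of Ccl25 was 8.16 ± 0.36 (SD, n = 5) in Hif1a+/- tumours, 8.02 ± 0.71 (SD, n = 4) in Hif1aKI/+ tumours and 6.76 ± 0.78 (SD, n = 5) in Hif1a+/+ tumours. The difference was 1.39 (SE 0.39, 2.63-fold, limma adjusted p = 0.474) for Hif1a+/- minus Hif1a+/+. It was 1.26 (SE 0.42, 2.39-fold, limma adjusted p = 0.984) for Hif1aKI/+ minus Hif1a+/+.

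Ccr9, the Ccl25 receptor on thymocytes, did not follow its ligand. It lay between 11.39 and 13.84 in 11 of the 14 tumours, but was 10.15 in Hif1a+/- tumour 4, 7.20 in Hif1a+/+ tumour 1 and 8.47 in Hif1a+/+ tumour 3. Hif1a+/+ tumour 1, the lowest for the receptor, was the highest Hif1a+/+ tumour for Ccl25. The average was 12.94 in Hif1a+/- tumours, 12.82 in Hif1aKI/+ tumours and 10.77 in Hif1a+/+ tumours, and the limma adjusted p values against Hif1a+/+ were 0.677 and 0.984.

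Aire was above background in 5 of the 14 tumours, and those 5 did not sort by genotype. Its promoter, shown because Aire marks a rare mature cell type, is chr10:78043561-78043860 on the minus strand.
Aire: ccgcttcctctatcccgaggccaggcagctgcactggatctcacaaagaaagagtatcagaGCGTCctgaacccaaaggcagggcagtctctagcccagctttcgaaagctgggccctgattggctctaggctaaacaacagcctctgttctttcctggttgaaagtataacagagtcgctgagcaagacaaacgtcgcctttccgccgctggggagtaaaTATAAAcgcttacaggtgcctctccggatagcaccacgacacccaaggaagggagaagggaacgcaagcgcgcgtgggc
It holds TATAAA 29 bases before the listed start and GACGC on the opposite strand 189 bases before it.

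Aire read 3.01, 3.51, 5.99, 2.94 and 2.04 in the Hif1a+/- tumours, 7.37, 7.40, 5.40 and 2.18 in the Hif1aKI/+ tumours, and 5.04, 3.02, 2.05, 2.06 and 2.05 in the Hif1a+/+ tumours. It was above the boundary in 3 of 4 Hif1aKI/+ tumours, in 1 of 5 Hif1a+/- tumours and in 1 of 5 Hif1a+/+ tumours. Hif1a+/- tumour 5 and Hif1aKI/+ tumour 5 had Aire at background although their Krt5 levels were 8.58 and 8.56.

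The Aire mean was 3.50 ± 1.49 (SD, n = 5) in Hif1a+/- tumours, 5.59 ± 2.46 (SD, n = 4) in Hif1aKI/+ tumours and 2.85 ± 1.30 (SD, n = 5) in Hif1a+/+ tumours. The difference was 2.74 (SE 1.14, limma adjusted p = 0.984) for Hif1aKI/+ minus Hif1a+/+, 0.65 (SE 1.07, adjusted p = 0.929) for Hif1a+/- minus Hif1a+/+ and -2.09 (SE 1.14, adjusted p = 0.99998) for Hif1a+/- minus Hif1aKI/+. Without Hif1a+/- tumour 3, the one in which Aire was 5.99, the difference of Hif1a+/- from Hif1a+/+ was 0.03.

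Genes that Aire induces in medullary epithelium were read from a list of 19, of which 14 were measured, 8 were at background in all tumours and 0 passed the threshold. Csn2, the milk protein beta-casein, had the pattern closest to Aire in that list. It read 4.71, 7.64, 8.57, 6.92 and 2.29 in the Hif1a+/- tumours, 10.13, 9.79, 9.04 and 4.34 in the Hif1aKI/+ tumours, and 5.26, 6.63, 2.29, 2.30 and 2.30 in the Hif1a+/+ tumours. Each tumour with Aire above background also had Csn2 above it, and 3 more tumours had Csn2 above background and Aire below.

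Apoa1, the liver apolipoprotein, was above background in 3 tumours, at 7.18 and 8.01 in Hif1aKI/+ tumours 1 and 3 and at 5.33 in Hif1a+/- tumour 4. Spink1, a pancreatic protease inhibitor, was above background in 5 tumours of the Hif1a+/- and Hif1aKI/+ groups, between 5.90 and 6.46, and stayed between 2.10 and 2.14 in all Hif1a+/+ tumours. Tff3, a mucosal peptide also on the list, did not follow Aire, being 8.51 in Hif1a+/+ tumour 5 where Aire was at background.

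Fezf2, a transcription factor of medullary epithelium that switches on a further set of tissue genes, read 2.08, 5.06, 7.89, 3.42 and 2.08 in the Hif1a+/- tumours, 7.96, 7.18, 4.35 and 2.08 in the Hif1aKI/+ tumours and between 2.07 and 2.15 in the Hif1a+/+ tumours. Its highest tumours were the 3 in which Aire was highest, but Hif1a+/+ tumour 1 had Aire at 5.04 and Fezf2 at 2.09. Tbata, listed with the cortical genes, was highest in the same 3 tumours, at 8.75 and 8.45 in Hif1aKI/+ tumours 1 and 3 and 8.64 in Hif1a+/- tumour 3.

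**Figure D2:**
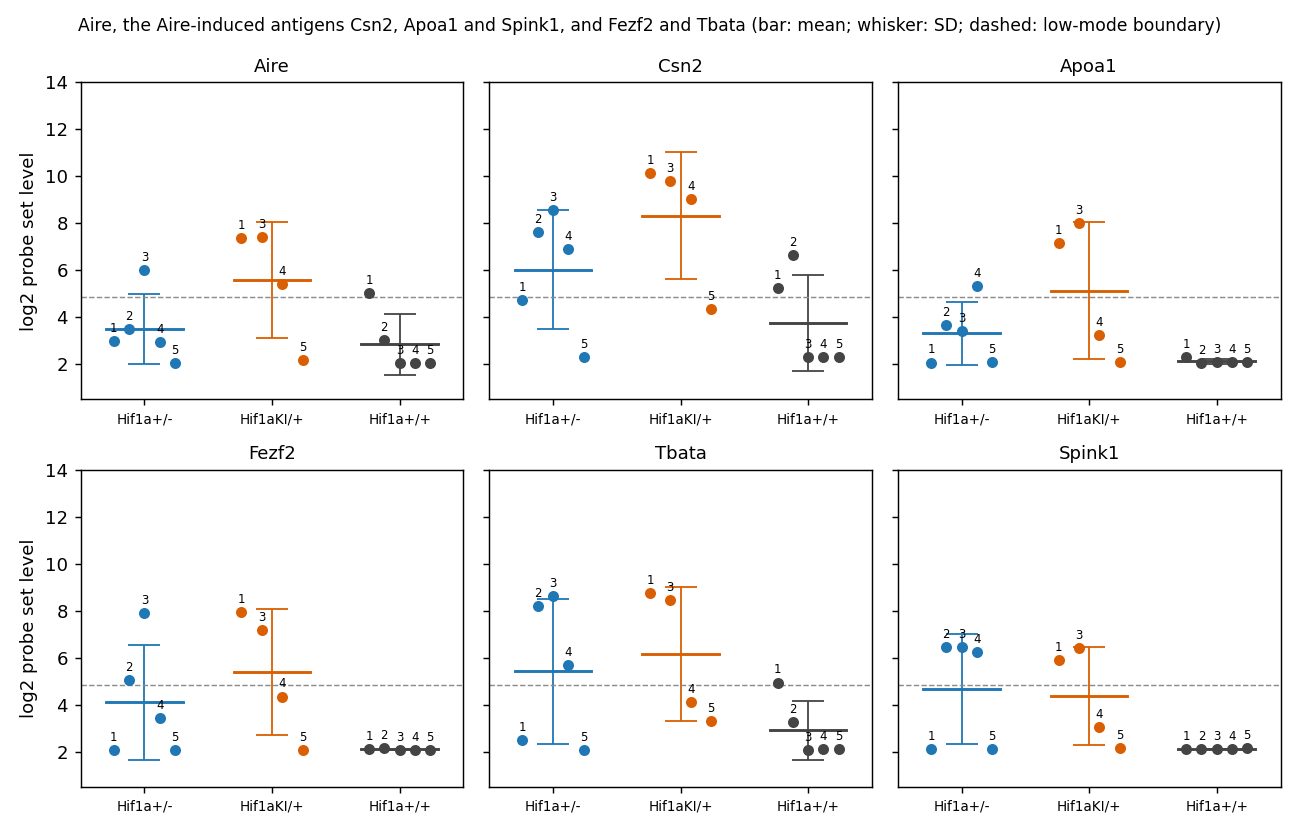
Log2 probe set level (vertical axis) of Aire, of the tissue genes Csn2, Apoa1 and Spink1 and of Fezf2 and Tbata in each tumour by Hif1a genotype (horizontal axis), with tumour numbers, bars for means, whiskers for SD and a dashed line at the low-mode boundary. Hif1aKI/+ tumours 1 and 3 and Hif1a+/- tumour 3 stand at the top of the Aire and Fezf2 panels, and Hif1a+/+ tumours 3, 4 and 5 are at background in every panel shown.

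To set the cortical and the medullary or basal genes side by side, each value was taken as its deviation from the gene's own mean over the 14 tumours. In Hif1a+/+ tumours 3, 4 and 5 all 8 genes were below their means, as were 7 of 8 in Hif1a+/- tumour 1. In Hif1aKI/+ tumours 1 and 3 and Hif1a+/- tumour 3, 0 of 8 were below. The deviations are descriptions and no test was made of them.

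The mean deviation of Krt8, Krt18 and Ccl25 was between -0.49 and 1.79 in Hif1a+/- tumours, between 0.58 and 1.81 in Hif1aKI/+ tumours and between -4.27 and 1.33 in Hif1a+/+ tumours. That of Krt5, Krt14 and Aire was between -0.86 and 1.83, between 0.00 and 2.27 and between -2.67 and 0.85 in the same order of groups. The cortical minus the medullary deviation was lowest in Hif1a+/+ tumours 3, 4 and 5, at -1.26, -1.79 and -0.88, and lay between -0.45 and 1.04 in the other 11 tumours. Both sets of genes were low in those 3 tumours. How far a gene can read under its own mean is limited by background, and Aire and Krt14 averaged 3.86 and 4.57 over the 14 tumours, against 9.02 for Krt8 and 8.39 for Krt18, so the size of this contrast is not a measure of the compartments.

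Among the keratins alone, the deviation of Krt8 and Krt18 minus that of Krt5 and Krt14 was -2.46, -3.10 and -1.50 in Hif1a+/+ tumours 3, 4 and 5 and between -0.08 and 1.13 elsewhere. Aire and Ccl25, the non-keratin genes of the cortical and the medullary or basal sets, cut across the division. In Hif1a+/+ tumour 2 the keratin deviations were 0.75 for the cortical pair and 0.53 for the basal pair, while Ccl25 was at -1.56 and Aire at -0.84. In Hif1aKI/+ tumour 5 they were 1.86 and 0.84, with Ccl25 at -0.61 and Aire at -1.68.

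**Figure D3:**
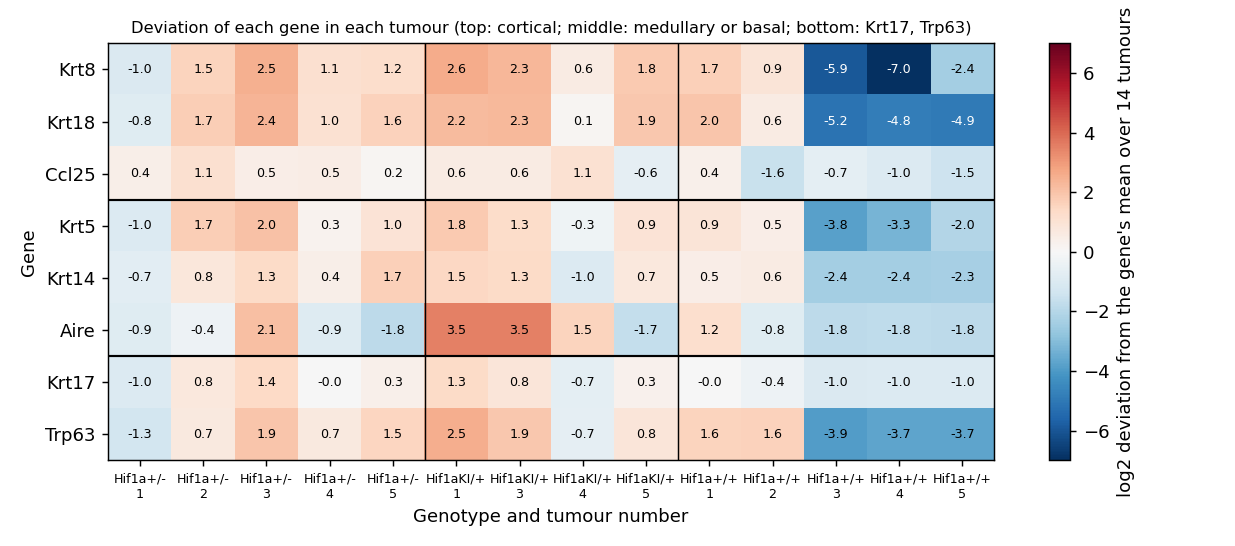
Deviation of each gene (rows: cortical genes on top, medullary or basal genes in the middle, Krt17 and Trp63 at the bottom) from its mean over the 14 tumours, in log2 units by colour and number, for each tumour (columns, by genotype). Hif1a+/+ tumours 3, 4 and 5 are below the mean in all 8 rows, furthest for Krt8, and Aire reaches 3.5 in Hif1aKI/+ tumours 1 and 3.

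The likeness of the genes across tumours was described over the 9 Hif1a+/- and Hif1aKI/+ tumours, because the Hif1a+/+ tumours fell into separate clusters. All pairs share these 9 tumours. Krt8 and Krt18 had a Spearman rho of 0.95 (Pearson r = 0.97), and Krt8 and Krt5, from the 2 compartments, had a rho of 0.90 (r = 0.92). Krt5 and Krt17 had a rho of 0.98, and Trp63 and Krt8 of 0.92. The order of these tumours was thus nearly the same for Krt8 as for Krt5, and neither keratin was at background in any of the 9.

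Ccl25 had a rho of 0.08 with Krt8 and 0.23 with Krt5 over the 9 tumours, near 0 with its compartment's keratin. Over all 14 tumours these values were 0.52 and 0.55. Over the 9, the highest rho of Ccl25 among the members was 0.62, with Aire. Aire had a rho of 0.53 with Krt8 and 0.48 with Krt5, 0.95 with Csn2, 0.88 with Fezf2 and -0.05 with Tff3. Of these tumours, Aire was above the boundary in 1 of 5 Hif1a+/- and 3 of 4 Hif1aKI/+ tumours. Fezf2 was above it in 2 of 5 and 2 of 4. Much of each ranking with Aire, that of Ccl25 included, is therefore among background values, which are not read as an order. Trp63 had a rho of 0.78 with Perp, 0.57 with Lamb3 and -0.42 with Jup.

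**Figure D4:**
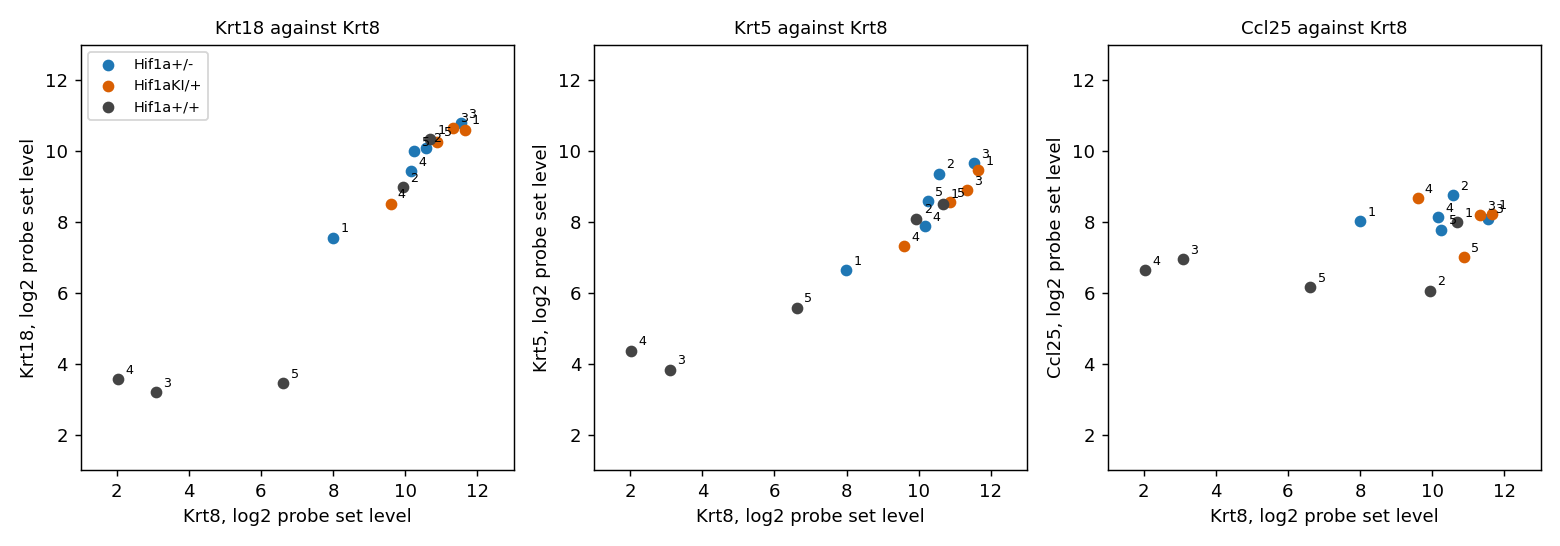
Log2 probe set level of Krt18, Krt5 and Ccl25 (vertical axes) against that of Krt8 (horizontal axis), 1 numbered point per tumour, coloured by Hif1a genotype. Krt18 and Krt5 rise along with Krt8 across the tumours, with Hif1a+/+ tumours 3, 4 and 5 apart at the lower left, while Ccl25 in the 9 Hif1a+/- and Hif1aKI/+ tumours shows no such order.

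Outside the members, the 5 genes with a mean above the background boundary whose ranks over the 14 tumours were most like those of Krt8 were Slco2a1 (rho 0.90), a prostaglandin transporter, Dsc2 (0.90), a desmosomal cadherin, Spint1 (0.89), an inhibitor of epithelial proteases, Parm1 (0.88) and Sprr1a (0.87), a cornified envelope protein. Those most like Krt5 were Defb1 (rho 0.90), a beta-defensin of epithelia, Boc (0.88), Spint1 (0.88), Ptn (0.87) and Slco2a1 (0.86). These 8 genes were above the boundary in between 7 (Sprr1a) and 13 (Slco2a1) of the 14 tumours, 9 for Spint1. Part of each ranking is therefore among background values, which are not read as an order. Over the 9 Hif1a+/- and Hif1aKI/+ tumours the rho with Krt8 was 0.83 for Slco2a1, 0.90 for Dsc2, 0.80 for Spint1, 0.88 for Parm1 and 0.77 for Sprr1a. None of these genes passed the test between genotypes.

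Other genes of thymic epithelium mostly lay at background or are shared with other cells. Of 12 listed cortical genes 10 were measured and 4 were at background in all tumours, of 16 medullary genes 14 were measured and 7 were, and of 12 genes of thymic identity 7 were measured and 4 were. None of these lists held a gene past the threshold in any comparison. Prss16, a protease of cortical epithelium named here after its values were seen, was at background in all 14 tumours, with a maximum of 4.64, and Epcam, an epithelial surface protein, was 9.02 in Hif1a+/+ tumour 5, where Krt18 was 3.45.

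Of the 10 measured cortical genes, 1 was higher and 1 lower at an unadjusted p below 0.05 for Hif1a+/- against Hif1a+/+, beside 4.3% higher and 3.64% lower over all genes, and 0 were for Hif1aKI/+ against Hif1a+/+. Ctsl, a lysosomal protease of cortical epithelium and of macrophages, averaged 12.39 in Hif1a+/- tumours and 11.49 in Hif1a+/+ tumours, a difference of 0.90 (SE 0.35, limma adjusted p = 0.558). Cxcl12, a chemokine of cortical epithelium and fibroblasts, averaged 8.49 in Hif1a+/- tumours and 9.81 in Hif1a+/+ tumours, a difference of -1.32 (SE 0.49, adjusted p = 0.540).

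Tnfsf11, the T cell ligand RANKL that matures Aire-positive epithelium, read 9.96, 7.46, 11.02 and 5.11 in the Hif1aKI/+ tumours and was highest, at 11.02, in tumour 4, where Aire was 5.40. It was 9.52 in Hif1a+/+ tumour 5, where Aire was 2.05. Of 6 listed ligands and receptors of the RANK, CD40 and lymphotoxin pathways 5 were measured, 3 were at background in all tumours and 0 passed the threshold.

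Of 7 measured genes of differentiated skin and oesophagus, 4 were below the boundary in all tumours, and 7 of 11 measured other keratins were too. The remaining skin genes, Krt10, Sprr1a and Krtdap, were above it in 13, 7 and 4 tumours, with maxima of 9.09, 8.51 and 8.06. The skin and oesophagus list means ran from 2.61 to 4.65 in Hif1a+/- tumours and 3.30 to 4.49 in Hif1aKI/+ tumours. In Hif1a+/+ tumours they ran from 2.63 to 3.28. Of 5 measured lung epithelium genes 3 were at background throughout. Scgb1a1, the club cell secretoglobin, was above background in 5 tumours and highest, at 11.13, in Hif1a+/+ tumour 5. It was 7.29 and 5.78 in Hif1a+/- tumours 3 and 4. In Hif1aKI/+ tumours 1 and 3 it was 7.495 and 5.42. Whether skin, oesophagus or lung cells are present, and any part of theirs in the keratin values, was not tested.

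Fibroblast and macrophage markers had lower averages, and dendritic cell and MHC class II genes higher ones, in Hif1a+/- and Hif1aKI/+ tumours than in Hif1a+/+ tumours. For Hif1a+/- against Hif1a+/+, 10 of 10 fibroblast and 6 of 8 macrophage genes were lower and 7 of 8 dendritic cell and MHC class II genes were higher. For Hif1aKI/+ against Hif1a+/+ the counts were 8 of 10, 5 of 8 and 7 of 8, and over all genes 46.2% and 47.7% were higher in these comparisons. The fibroblast list includes Thy1, also on the T lineage list, which lay between 14.01 and 14.52 in these lymphomas. The counts also take in Lum of the fibroblast list and Ciita and Flt3 of the dendritic cell list. Those were at background in all tumours, so their direction has no meaning. The mean of 10 fibroblast genes was 8.55 to 9.46 in Hif1a+/- tumours, 9.13 to 9.81 in Hif1aKI/+ tumours and 9.62 to 10.81 in Hif1a+/+ tumours, and that of 8 macrophage genes was 7.87 to 8.73, 7.93 to 9.29 and 8.76 to 10.39 in the same order. Adipocyte genes, 5 measured, averaged 7.68, 9.34 and 8.30 in Hif1a+/+ tumours 2, 3 and 5 but 4.64 in Hif1a+/+ tumour 4, and between 4.61 and 6.26 in the tumours of the other genotypes. Mesothelium genes, 3 measured, averaged 4.03 in Hif1aKI/+ tumour 4, 6.69 in Hif1a+/+ tumour 2 and 3.37 in Hif1a+/+ tumour 3, and 0 genes of these lists passed the threshold. Dendritic cell and MHC class II genes, 8 measured, averaged 8.88 to 9.37 in Hif1a+/- tumours, 8.90 to 9.81 in Hif1aKI/+ tumours and 7.16 to 9.55 in Hif1a+/+ tumours, lowest in Hif1a+/+ tumour 3. Their part in the differences in keratins, Aire and Ccl25 was not tested.

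**Figure D5:**
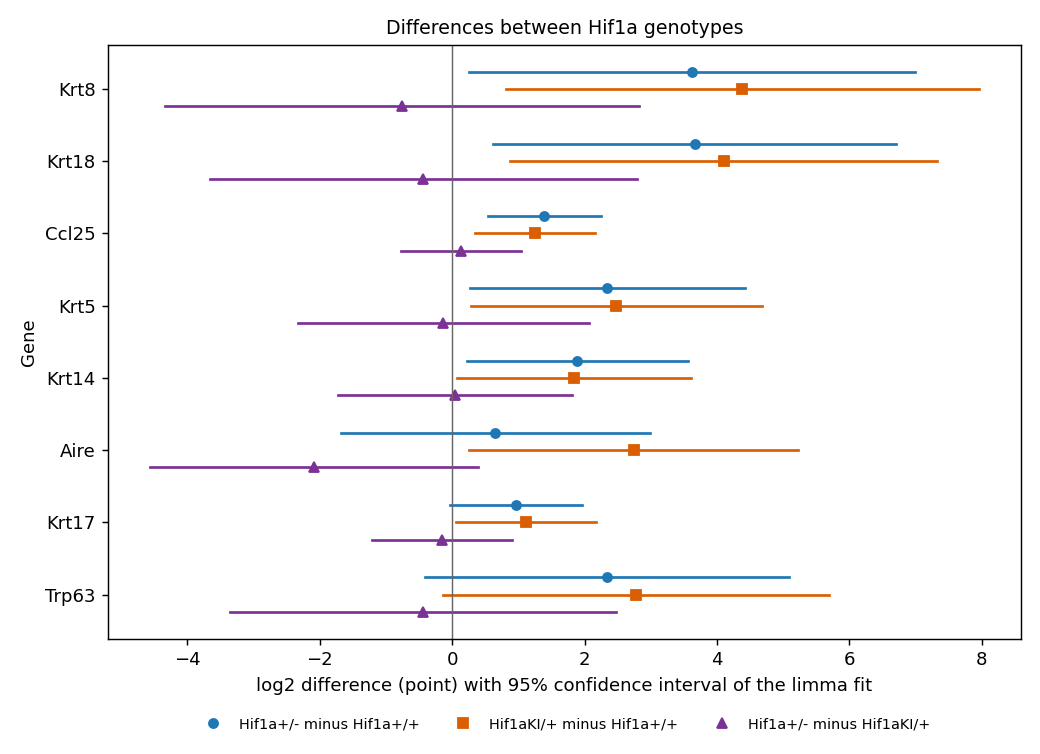
Log2 difference between Hif1a genotypes (horizontal axis) for each of the 8 measured genes (rows), with the limma estimate as a point and its 95% confidence interval as a line, for Hif1a+/- minus Hif1a+/+, Hif1aKI/+ minus Hif1a+/+ and Hif1a+/- minus Hif1aKI/+. The points of both comparisons with Hif1a+/+ lie to the right of 0 for all 8 genes, with intervals several units wide for Krt8, Krt18 and Trp63. The interval reaches below 0 for Trp63 in both comparisons, and for Aire and Krt17 in Hif1a+/- minus Hif1a+/+.

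Across the set, 0 of 8 genes passed the adjusted threshold of 0.05 in limma for Hif1a+/- against Hif1a+/+, where 0.0195% of all genes did. Likewise 0 of 8 passed for Hif1aKI/+ against Hif1a+/+ and 0 of 8 for Hif1a+/- against Hif1aKI/+, where 0% of all genes did. At an unadjusted p below 0.05, 5 of 8 were higher in Hif1a+/- than in Hif1a+/+ tumours beside 4.3% of all genes, and 0 of 8 were lower beside 3.64%. In the same way 7 of 8 were higher in Hif1aKI/+ than in Hif1a+/+ tumours beside 2.72%, and 0 of 8 were lower beside 1.63%. A difference above 0 was seen in 8 of 8 genes for Hif1a+/- and in 8 of 8 for Hif1aKI/+ against Hif1a+/+, beside 46.2% and 47.7% of all genes, and in 2 of 8 for Hif1a+/- against Hif1aKI/+, beside 46.9%. A log2 difference of at least 1 was seen in 6 of 8 genes for Hif1a+/- above Hif1a+/+, beside 4.13% of all genes, and in 8 of 8 for Hif1aKI/+ above Hif1a+/+, beside 4.58%. The genes were read in the same tumours, Hif1a+/+ tumours 3, 4 and 5 being low for each, so the 8 are not independent of each other. They were also chosen with earlier results of these data known, so the shares over all genes set no chance level for them.

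Between Hif1a+/- and Hif1aKI/+ tumours 0 of 8 genes passed an unadjusted p of 0.05 in either direction, beside 1.41% higher and 1.65% lower over all genes, and 0 of 8 had Hif1a+/- above Hif1aKI/+ by 1 or more, beside 2.06%. No gene of the set was separated without overlap for Hif1a+/- above Hif1a+/+, where 0.731% of all genes were, or for Hif1aKI/+ above Hif1a+/+, where 0.878% were, or for Hif1a+/- above Hif1aKI/+, where 0.234% were. The order of the group means was Hif1aKI/+, Hif1a+/-, Hif1a+/+ from high to low for Krt8, Krt18, Krt5, Krt17, Aire and Trp63, and Hif1a+/-, Hif1aKI/+, Hif1a+/+ for Ccl25 and Krt14. For Hif1a+/- minus Hif1aKI/+ the difference was -0.76 in Krt8, with a 95% confidence interval of -4.33 to 2.82, and 0.14 in Ccl25, with an interval of -0.77 to 1.04, so differences of several units in Krt8 are not shown to be absent. The upper pair of groups differed by less than the spread between tumours for every gene except Aire, whose difference of -2.09 was larger than the SD of 1.49 within Hif1a+/- tumours and smaller than the SD of 2.46 within Hif1aKI/+ tumours.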

How the data were processed

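Total RNA (100 ng per tumour, labelled with biotin, per the labels) from 14 thymic lymphomas was hybridised to 1 Affymetrix array each. The authors deposited 1 log2 value per probe set. The submitters' processing notes name GCRMA, which corrects background, normalizes and summarises probes, and Partek, both without versions. Of 18264 probe sets, 16602 name 1 gene, and the one of highest mean stood for a gene, which left 10254 genes, with no filter on level. Probe sets whose names end in _x_at, as those that stood for Krt8 and Krt14 do, may bind other transcripts. The Krt8 probe set that read 2.43 in Hif1a+/+ tumours 3 and 4 is not of this type. Nor is the second Krt14 probe set, which was at background in all tumours. Promoters came from a RefSeq table (GRCm38.p6) that held 7 of the 9 genes.

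limma 3.58.1 (R 4.3.3; lmFit, eBayes, two-sided) was run with a mean for each genotype over the 14 arrays, p was adjusted by Benjamini-Hochberg over all genes, and the script was tested on simulated data. The low-mode boundary is the lowest point between the modes of the density of gene means, and 30.1% of genes lie below it. Array medians lay between 7.91 and 8.03, and the number of arrays limits the precision. The 9 genes and the gene lists were chosen with earlier results of these data known. Named genes are the members, from each list the 4 measured genes of highest mean and the 4 of smallest F test p, Ccr9, and the 5 genes most like Krt8 and Krt5. Alternatives covered normalization, centring, level filters, probe sets, moderation, array weights, the groups fitted, the replicate number and each array left out.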

Additional observations from a re-analysis of the deposited data

Results flagged for a closer look

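A total of 7 values stood far from the rest of their group, among 72 groups of 4 or 5 tumours examined for 24 genes. Chance gives about 1 in 20 for genes picked without regard to their values. These genes are those whose tumour values are given here, Prss16 being named after its values were seen. Some groups also lie at background, so that rate does not hold here. The number among the 8 measured keratin, Aire, Ccl25 and Trp63 genes was 0. Each value lay far from the nearest tumour of its own genotype relative to the range of that genotype. Ccr9 was 10.15 in Hif1a+/- tumour 4, the lowest of 5, and Perp was 7.27 in Hif1a+/- tumour 1, the lowest of 5. Epcam was 6.73 in Hif1aKI/+ tumour 3, the lowest of 4, and Prss16 was 4.64 in Hif1aKI/+ tumour 1, the highest of 4 and still at background. Scgb1a1 was 11.13, the highest of 5, in Hif1a+/+ tumour 5. Ctsl was 12.77 in Hif1a+/+ tumour 2, the highest of 5, and Apoa1 was 2.30 in Hif1a+/+ tumour 1, the highest of 5 and at background.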

How the results depend on the processing

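No alternative moved a gene of the set past the threshold, so the 3 counts of genes called stayed at 0, and every difference of Hif1a+/- or Hif1aKI/+ from Hif1a+/+ kept its direction under every alternative run. With 1 tumour left out, the Krt8 difference ran from 2.52 to 4.68 for Hif1a+/- minus Hif1a+/+ and from 3.27 to 5.44 for Hif1aKI/+ minus Hif1a+/+, and that of Ccl25 from 1.22 to 1.70 and from 1.04 to 1.595. The 17 reversals were all in Hif1a+/- minus Hif1aKI/+, where the differences are near 0. For Krt14, reported as 0.04, the value was -0.0529 with the mean of its probe sets, -0.30 with array weights, -0.15 at its second probe set and -0.19 with the replicate number as a block. With 1 tumour left out the range was -0.49 to 0.40 for Krt14, -0.94 to 0.0655 for Krt18, -0.20 to 0.35 for Ccl25, -0.55 to 0.31 for Krt5, -0.53 to 0.16 for Krt17 and -1.04 to 0.0599 for Trp63. The cause was not tested. The labels do not say whether the replicate numbers pair the tumours. Tumours of the same number had a mean residual correlation of -0.006 (-0.11 to 0.14 over 13 pairs), which cannot exclude a pairing. The replicate block changed no other direction and no call. The filter on genes above the low-mode boundary left out Krt14 and Aire, which have no value there. Signal over background limits Krt14, Aire and Trp63 most, whose means in Hif1a+/+ tumours lie below the boundary.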
